A study of Homo sapiens with 12 samples.

Results

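The AlkB demethylase family and FTO were examined as 9 genes chosen by name, ALKBH1 to ALKBH8 and FTO, of the 29696 genes in the expression table. The m6A peaks of the same genes were taken with them, 29 of 46039 peaks in the shALKBH5 list, 23 of 44304 in the shCtrl list and 8 of 6513 regions in a table of differential peaks. All samples came from A375, an established line of human melanoma cells. The cells were infected with a lentivirus carrying a hairpin against ALKBH5 (shALKBH5, labelled ALKBH5 knockdown) or a control hairpin (shCtrl, labelled wild type and named Scramble in the study). The study's methods give a harvest 48 h after infection for RNA-Seq and no time for the m6A IP. The study's methods add polybrene at infection and a later selection of infected cells with puromycin for 3 days. By the times of that general protocol, the selection began before 48 h after infection and ended after it. Whether the cells for sequencing went through the selection is not stated. The labels name no further allele or agent, and the sources do not say which hairpin against ALKBH5 was used for sequencing. Each group had 3 input libraries, whose expression was given in FPKM (fragment counts scaled to transcript length and library size), and 3 m6A IP libraries, deposited as 1 peak list per group. The labels do not say whether the 3 libraries of a group came from separate cultures, and the study's general remark that experiments were repeated independently does not name the libraries, so the p-values measure the spread between these libraries, which may be technical.

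AlkB proteins are dioxygenases that use iron and 2-oxoglutarate to oxidise methyl groups on nucleic acids or proteins, after which the methyl group is released. The founding member repairs alkylated DNA in bacteria. In human cells ALKBH5 and FTO remove N6-methyladenosine (m6A) from RNA and are called m6A erasers, ALKBH2 and ALKBH3 repair alkylated bases, ALKBH1 and ALKBH8 act on transfer RNA, and ALKBH4 and ALKBH7 have been tied to proteins and to mitochondria. The question here was how the rest of the family stood in cells in which ALKBH5 had been silenced, in RNA level and in m6A peaks.

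The melanoma label was checked with markers. SOX10, a transcription factor of the melanocyte lineage, was at 178.7 to 191.8 FPKM in all 6 libraries. Of 10 melanoma markers chosen, MLANA was not analysed here and 6 of the other 9 reached 1 FPKM, while the pigment genes TYR, DCT and PMEL stayed below it and TYR was listed at 0 in all shCtrl libraries. The summed level of the list was 566 to 582 FPKM in shALKBH5 and 1030 to 1043 FPKM in shCtrl, since VIM, NGFR and AXL were lower and S100B was higher in shALKBH5 (log2 fold changes -1.46, -2.59, -0.80 and 1.32). MITF was at 0.913 to 1.57 FPKM in shALKBH5 and at 0.645 to 1.01 FPKM in shCtrl, and passed the test although the groups overlap (log2 fold change 0.63, limma adjusted p = 0.0475), a call lost in 8 of 13 alternatives. Of 10 markers of epithelial, fibroblast, blood and endothelial cells chosen, 7 were in the table. Among these, KRT14 and PDGFRB reached 1 FPKM, none was at 0 in all libraries, and their sum was 4.05 to 4.25 FPKM in shALKBH5 and 8.49 to 9.81 FPKM in shCtrl. PDGFRB (2.73 and 7.25 FPKM in shALKBH5 and shCtrl) and KRT14 (0.369 and 0.961 FPKM) were lower in shALKBH5. COL1A1, DCN, CD14, EPCAM and PECAM1 stayed below 1 FPKM. Of these, DCN was higher in every shALKBH5 library (means of 0.291 and 0.187 FPKM), and the groups overlapped for the others. The part of these differences in the results for the family was not tested.

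All 9 members were expressed above the filter, a mean of 0.5 FPKM over the 6 libraries. ALKBH5 was much lower in shALKBH5 cells, FTO, ALKBH1, ALKBH2, ALKBH4, ALKBH6 and ALKBH8 were higher by 1.14 to 1.94 times, and ALKBH3 and ALKBH7 did not pass the test. With an adjusted p-value under 0.05 from limma, 7 of 9 members were called, where 61% of the 12985 genes tested were called. In the higher direction 6 of 9 members were called against 34.7% of all genes, and in the lower direction 1 of 9 against 26.2%. After rescaling by the median ratio, 5 of 9 members were called higher against 29.2% of all genes, and 1 of 9 lower against 30.0%, so the surplus of higher over lower calls among all genes (4509 and 3408) became 3788 and 3898. The median log2 fold change was 0.31 over the members and 0.09 over all genes tested. The libraries of the groups did not overlap in 7 of 9 members, against 67% of all genes. They were all higher in 6 members, against 38% of all genes, and all lower in 1 member, against 29%.

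**Figure D1:**
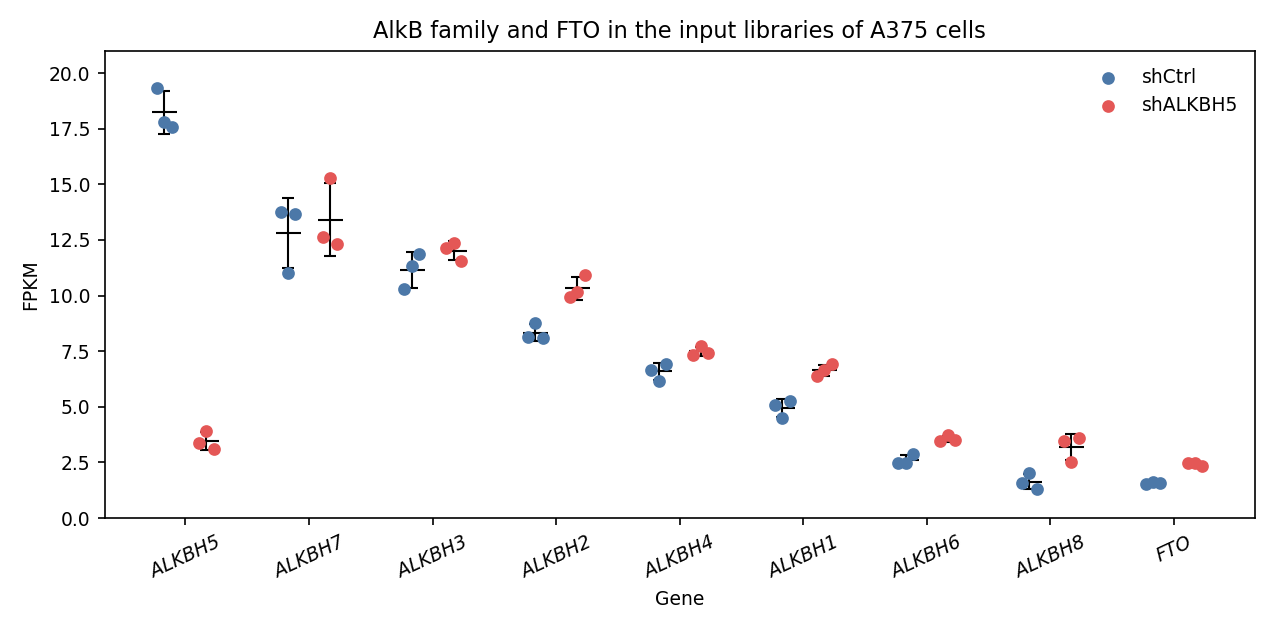
FPKM of the 9 genes in each of the 3 shCtrl (blue) and 3 shALKBH5 (red) input libraries, ordered by their shCtrl mean, with the horizontal line at the mean and bars of 1 SD. ALKBH5 fell from the highest place, 17.6 to 19.3 FPKM, to 3.12 to 3.92 FPKM, and only ALKBH3 and ALKBH7 have points of both groups at the same height.

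ALKBH5, the nuclear m6A eraser and the target of the hairpin (ENSG00000091542, chromosome 17, 18183078 to 18209954, plus strand), was read first as a check of the labels. Its level was 3.39, 3.92 and 3.12 FPKM in shALKBH5 replicates 1, 2 and 3, against 19.3, 17.8 and 17.6 FPKM in shCtrl. The remaining level was 19.1% of the shCtrl mean, with a log2 fold change of -2.36 (SE 0.0887, limma adjusted p = 1.276e-06). In bulk RNA, a loss in every cell and a complete loss in a part of the cells cannot be told apart. Among the genes tested, 54 had a lower log2 fold change than ALKBH5. In the ranking of genes by their mean level, ALKBH5 was at the 83.5th percentile in shCtrl and at the 47.2nd percentile in shALKBH5.

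FTO, the other m6A eraser, which also acts on the methylated base beside the mRNA cap (ENSG00000140718, chromosome 16, 53701692 to 54158512, plus strand), had 2.48, 2.46 and 2.36 FPKM in shALKBH5 replicates 1, 2 and 3, against 1.55, 1.63 and 1.57 FPKM for shCtrl. Every shALKBH5 library was above every shCtrl library, and the spread within a group was small beside the gap, with SDs of 0.0664 and 0.0378 FPKM (n = 3 each). FTO rose 1.54-fold, a log2 fold change of 0.59 (SE 0.0758, limma adjusted p = 0.000401). A change of at least this size, in either direction, was seen in 29.5% of the genes tested.

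The rise of FTO was small beside the loss of ALKBH5 on the length-scaled FPKM. The summed FPKM of ALKBH5 and FTO was 5.87, 6.38 and 5.47 in the shALKBH5 replicates and 20.9, 19.4 and 19.1 in the shCtrl replicates. Their means were 5.91 ± 0.457 and 19.8 ± 0.941 (SD, n = 3), a difference of -13.9 FPKM with no overlap (exact permutation test, two-sided, p = 0.1, the lowest value possible with these group sizes). FTO made up 8.00 ± 0.495% of this sum in shCtrl and 41.3 ± 2.39% in shALKBH5 cells (SD, n = 3). ALKBH5 RNA thus stood 11.5 ± 0.801 times above FTO RNA in shCtrl and 1.43 ± 0.145 times above it in shALKBH5 cells (SD, n = 3), and it remained the higher of the pair in all 6 libraries.

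Of the members that act on transfer RNA, ALKBH8 had the highest log2 fold change of the family. ALKBH8 joins an AlkB domain to a methyltransferase domain and modifies the wobble uridine of transfer RNA (ENSG00000137760, chromosome 11, 107502727 to 107565742, minus strand). It was at 3.45, 2.53 and 3.59 FPKM in shALKBH5 and at 1.60, 2.02 and 1.31 FPKM in shCtrl replicates 1, 2 and 3. The groups did not overlap, but replicate 2 lay closest to the other group in both. The fold was 1.94 and the log2 fold change 0.92 (SE 0.183, limma adjusted p = 0.00357), the widest standard error among the members. It was 0.78 to 1.08 with each library left out. ALKBH1, a demethylase of transfer RNA in the cytoplasm and in mitochondria (ENSG00000100601, chromosome 14, 77672404 to 77708023, minus strand), was at 6.40, 6.64 and 6.91 FPKM in shALKBH5 and at 5.06, 4.51 and 5.27 FPKM in shCtrl. It was higher in every shALKBH5 library, with a log2 fold change of 0.42 (SE 0.0725, limma adjusted p = 0.00174).

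The members that repair alkylated bases differed from each other in outcome. ALKBH2, which repairs double-stranded DNA (ENSG00000189046, chromosome 12, 109088188 to 109093631, minus strand), was at 9.92, 10.2 and 10.9 FPKM in shALKBH5 and at 8.12, 8.76 and 8.10 FPKM in shCtrl. The groups did not overlap, and the log2 fold change was 0.31 (SE 0.0591, limma adjusted p = 0.00301). ALKBH3, which prefers single-stranded DNA and also acts on RNA (ENSG00000166199, chromosome 11, 43880811 to 43920274, plus strand), was at 12.1, 12.4 and 11.5 FPKM in shALKBH5 and at 10.3, 11.3 and 11.9 FPKM in shCtrl. The groups overlapped, and the log2 fold change of 0.11 had a 95% interval of -0.04 to 0.26 (limma adjusted p = 0.188). It was 0.03 after rescaling by the median ratio and 0.05 without shCtrl replicate 1. Whether the changes of ALKBH2 and ALKBH3 differ from each other was not tested.

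The other members were ALKBH4, a demethylase tied to actin, ALKBH6, whose substrates are less well known, and ALKBH7, a mitochondrial protein tied to programmed necrosis. ALKBH4 (ENSG00000160993, chromosome 7, 102456238 to 102464863, minus strand) was at 7.31, 7.73 and 7.43 FPKM in shALKBH5 and at 6.65, 6.18 and 6.94 FPKM in shCtrl. Its groups did not overlap, and its log2 fold change was 0.18 (SE 0.0610, limma adjusted p = 0.0330). This call rested on a small difference. After rescaling each library by its median ratio the log2 fold change was 0.11 with an adjusted p of 0.225, and without shALKBH5 replicates 1, 2 and 3 and shCtrl replicate 2 in turn the adjusted p was 0.0631, 0.110, 0.0757 and 0.0767.

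ALKBH6 (ENSG00000239382, chromosome 19, 36009120 to 36014239, minus strand) was at 3.47, 3.72 and 3.53 FPKM in shALKBH5 and at 2.47, 2.47 and 2.87 FPKM in shCtrl. It was higher in every shALKBH5 library, with a log2 fold change of 0.44 (SE 0.0820, limma adjusted p = 0.00247). ALKBH7 (ENSG00000125652, chromosome 19, 6372794 to 6375250, plus strand) was at 12.6, 15.3 and 12.3 FPKM in shALKBH5 and at 13.8, 11.0 and 13.7 FPKM in shCtrl. Its groups overlapped with replicate 2 at the extreme of each, the highest in shALKBH5 and the lowest in shCtrl. The log2 fold change of 0.07 had a 95% interval of -0.20 to 0.33 (limma adjusted p = 0.643).

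**Figure D2:**
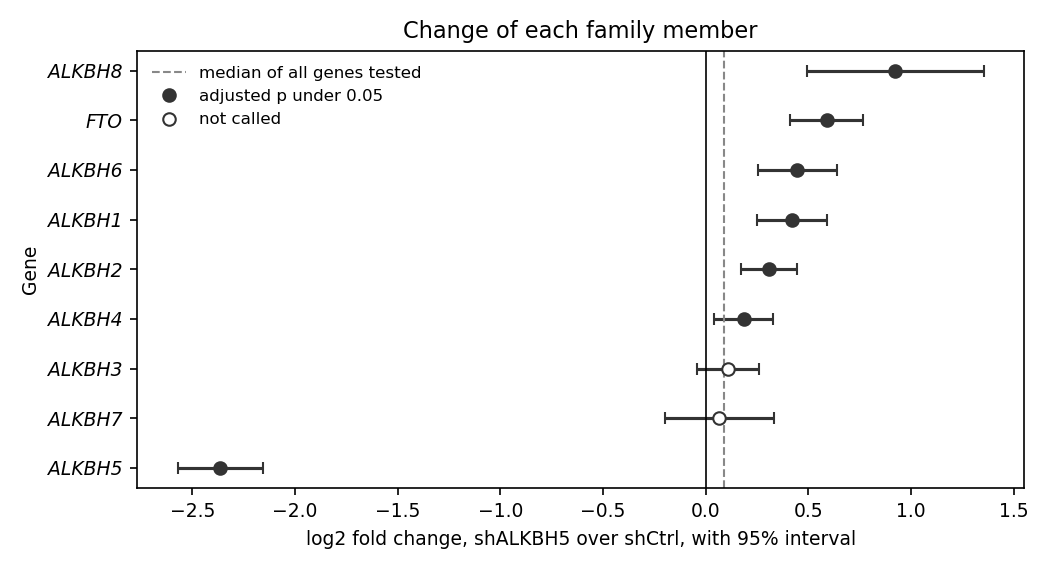
Log2 fold change of FPKM, shALKBH5 over shCtrl, for each member, with its 95% interval from limma, filled where the adjusted p-value was under 0.05. ALKBH5 lies at -2.36, the 6 other filled points run from 0.18 for ALKBH4 to 0.92 for ALKBH8, and the dashed line at 0.09 is the median of all genes tested.

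Several members share genomic sequence with other genes, and how the counting treated such reads is not stated. ORAI2 (13.7 and 10.2 FPKM in shALKBH5 and shCtrl) overlaps the end of ALKBH4 by 588 bases on the opposite strand, PSPN overlaps ALKBH7 by 103 bases, and RPGRIP1L overlaps FTO by 2247 bases, both also on the opposite strand. The study's methods describe a library step that keeps strand information for the IP RNA. For RNA-Seq they describe no such step. On the same strand, SEC14L1P1 lies within ALKBH3 and was at 0.777 and 0.577 FPKM, and AC002116 covers nearly all of ALKBH6 and was at 0 and 0.0270 FPKM.

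The order of the family was the same in both groups apart from ALKBH5. In shCtrl, ALKBH5 (18.2 FPKM) was followed by ALKBH7 (12.8), ALKBH3 (11.2), ALKBH2 (8.33), ALKBH4 (6.59), ALKBH1 (4.95), ALKBH6 (2.60), ALKBH8 (1.64) and FTO (1.58), all as mean FPKM. Neighbours were apart in all libraries except ALKBH7 and ALKBH3, and ALKBH8 and FTO, whose ranges overlapped. In shALKBH5, ALKBH5 (3.48 FPKM) stood at place 7, between ALKBH6 (3.57 FPKM) and ALKBH8 (3.19 FPKM), and its range overlapped both. ALKBH7 and ALKBH3 overlapped there too, and FTO (2.43 FPKM) was the lowest member in both groups.

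The composition of the family differed by the loss of 1 gene and by smaller rises elsewhere. The summed FPKM of the 8 members other than ALKBH5 was 57.8, 60.9 and 58.6 in shALKBH5 and 49.5, 47.9 and 51.6 in shCtrl, a 1.19-fold higher mean with no overlap (exact permutation test, two-sided, p = 0.1, again the lowest possible). The ALKBH5 share of the summed FPKM of all 9 was 26.9 ± 1.37% in shCtrl and 5.55 ± 0.501% in shALKBH5 cells (SD, n = 3). The whole sum was 67.9 ± 1.91 and 62.6 ± 1.96 FPKM (SD, n = 3). The 8 other genes together were thus 9.42 FPKM higher, while ALKBH5 alone went from 18.2 to 3.48 FPKM.

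**Figure D3:**
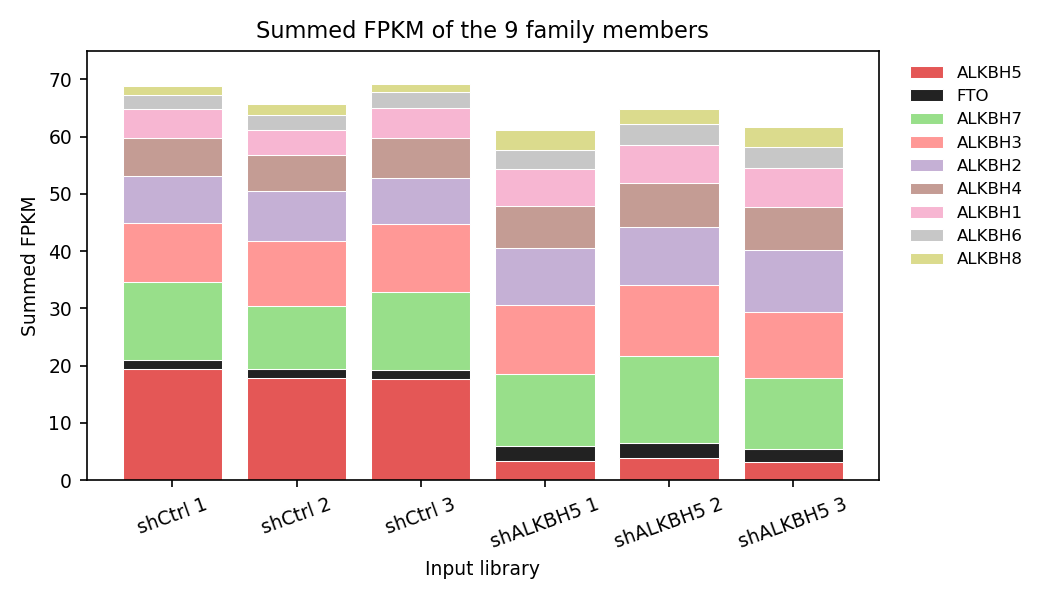
Stacked FPKM of the 9 members in each input library, with ALKBH5 (red) and FTO (black) at the foot of each bar. The red part fills 25.4 to 28.1% of the shCtrl bars and 5.05 to 6.05% of the shALKBH5 bars.

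Genes whose pattern was most like that of ALKBH5 were EZR, which links the membrane to actin, DPYSL2, a cytoskeletal regulator, and TCF19, a nuclear protein. Their log2(FPKM + 0.1) followed ALKBH5 with Pearson's r above 0.999 over the 6 libraries. Such values are a description of the split between the groups, as 23.9% of 5715 genes averaging 5 FPKM or more had r above 0.9. EZR was at 19.7 ± 0.737 and 40.5 ± 0.489 FPKM in shALKBH5 and shCtrl, DPYSL2 at 7.97 ± 0.457 and 16.3 ± 0.319 FPKM, and TCF19 at 1.87 ± 0.205 and 9.46 ± 0.0991 FPKM (SD, n = 3). Only TCF19 had a change close in size to that of ALKBH5, with a log2 fold change of -2.29.

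Lists of related genes were read off the same fit, in which 34.7% of all genes tested were called higher and 26.2% lower. The first held 16 partners of AlkB proteins and genes of alkylation and base excision repair, all tested, of which 2 rose, 6 fell and 8 did not pass, with a median log2 fold change of -0.08. Only 1 rose without shALKBH5 replicate 1 or without shCtrl replicate 3. MPG, the glycosylase that excises alkylated purines, fell from 45.1 ± 1.93 to 19.3 ± 0.638 FPKM (SD, n = 3, log2 fold change -1.22). OTUD4, which stabilises ALKBH2 and ALKBH3 proteins, fell from 3.59 ± 0.453 to 1.85 ± 0.134 FPKM (log2 fold change -0.92), and PCNA, the replication clamp that binds ALKBH2, from 63.1 ± 3.99 to 37.3 ± 1.22 FPKM (log2 fold change -0.76). APEX1 and POLB, which act after a glycosylase, rose, with log2 fold changes of 0.25 and 0.24. The call of POLB (limma adjusted p = 0.0446) was lost in 8 of 13 alternatives, among them the replicate block (0.0848) and the rescaling (0.126). XRCC1 and PARP1 of the same list fell, both with a log2 fold change of -0.28 (limma adjusted p = 0.00161 and 0.000759), and LIG3 did not pass (limma adjusted p = 0.0803). TRMT112, the partner of ALKBH8, did not pass, with 325.7 FPKM in shALKBH5 and 302.9 FPKM in shCtrl (adjusted p = 0.0631). Of the complex that works with ALKBH3, the helicase ASCC3 did not pass, with 2.00 and 1.49 FPKM (adjusted p = 0.0723), nor did ASCC1 (adjusted p = 0.994), while ASCC2 fell from 10.8 to 8.71 FPKM (log2 fold change -0.30, adjusted p = 0.00196).

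The second list held 23 enzymes and cofactors that place the marks on RNA that the family removes or that share its transfer RNA pathway. Of 22 tested, 7 rose, 1 fell and 14 did not pass, with a median log2 fold change of 0.14. The number that fell was 2 without shALKBH5 replicate 2 and without shCtrl replicate 1. TRMT61A, the catalytic subunit of a transfer RNA adenosine methyltransferase, rose from 5.01 ± 0.491 to 10.2 ± 0.364 FPKM (SD, n = 3, log2 fold change 1.01), while its partner TRMT6 was at 3.21 FPKM in shALKBH5 and 3.72 FPKM in shCtrl and did not pass (adjusted p = 0.155). CTU1, which thiolates wobble uridine, and METTL16, an m6A methyltransferase, rose with log2 fold changes of 0.51 and 0.45. PCIF1, which places the cap-adjacent mark that FTO removes, was the gene that fell, from 14.8 ± 1.41 to 10.6 ± 0.192 FPKM (log2 fold change -0.48). METTL3, the core m6A methyltransferase, had a log2 fold change of 0.21 (adjusted p = 0.0123). After rescaling by the median ratio 4 of the 22 genes were called higher and 3 lower, against 29.2% and 30.0% of all genes. Calls were then lost, that of METTL3 included, which was also lost without shALKBH5 replicate 3 (adjusted p = 0.0509), and CBLL1 and TRMT6, already at negative log2 fold changes, were called lower (adjusted p = 0.0164 and 0.0494).

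The third list held 46 other dioxygenases that use iron and 2-oxoglutarate. Of 40 tested, 17 rose, 12 fell and 11 did not pass, with a median log2 fold change of 0.15. KDM6B, a histone demethylase, rose from 3.61 ± 0.119 to 19.0 ± 1.08 FPKM (SD, n = 3, log2 fold change 2.36, limma adjusted p = 3.177e-07). P4HA3, a collagen prolyl hydroxylase subunit, rose from 0.148 ± 0.00779 to 0.977 ± 0.0950 FPKM (log2 fold change 2.11 at low levels, 0.78 with a pseudocount of 1 and 2.64 with 0.01). It passed the filter through its shALKBH5 level alone, so its call is no support for the count, and it was not tested at a filter of 1 FPKM or without any 1 of the shALKBH5 libraries. TET3, which oxidises methylated cytosine in DNA, rose from 3.56 ± 0.147 to 7.03 ± 0.210 FPKM (log2 fold change 0.96). JMJD8, PLOD2, a lysyl hydroxylase of collagen, and P3H3 fell, with log2 fold changes of -0.94, -0.90 and -0.56. The called share of all 3 lists, 8 of 16, 8 of 22 and 29 of 40, can be read against the 61% of all genes.

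The m6A peaks of the family were then compared. Each list gives a peak its fold enrichment of IP over input and an FDR from the authors' peak caller, with no value per library, so nothing below has a replicate check. All 9 members had a peak in both lists, as did 83.7% of the 12868 gene names tested for expression. By the authors' annotation the 23 shCtrl peaks comprised 9 in the 3'UTR, 8 in the 5'UTR, 3 in other exons and 3 in introns, and the 29 shALKBH5 peaks 11, 10, 4 and 4. The FDR was above 0.05 for 1 of the 23 and 3 of the 29 peaks, which belong to FTO and ALKBH1. Of the table of differential peaks, 7 members held 8 regions, 2 of them in FTO, while ALKBH7 and ALKBH8 held none. A region of that table was present in 33.2% of the gene names tested.

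Overlapping peaks of the same gene and strand formed 28 pairs in the family, and the fold enrichment of the pair was set side by side. It was more than 2-fold lower in shALKBH5 in 7 pairs and more than 2-fold higher in 3 pairs, where 12.4% and 12.1% of the 43596 pairs of all genes passed these limits. Together 10 of 28 pairs were more than 2-fold apart, against 24.5% of all pairs, and 18 of 28 were lower in shALKBH5 by any amount, against 52.9%. The median log2 ratio was -0.13 over the 28 pairs and -0.04 over all pairs. Pairs are not independent, since 1 long peak can pair with several short ones, and such splits gave most of the pairs past 2-fold. Among the higher pairs, the ALKBH6 peak at 88.2 in shALKBH5 is counted against both 19.2 and 2.14 in shCtrl. The ALKBH3 pairs annotated as intronic lie within SEC14L1P1, and the pair at a log2 ratio of -1.04 among them is counted as lower. With an overlap of at least 50% of both peaks, 17 pairs were left, with 2 more than 2-fold lower and 3 higher, where 7.36% and 6.98% of all pairs at that overlap were.

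**Figure D4:**
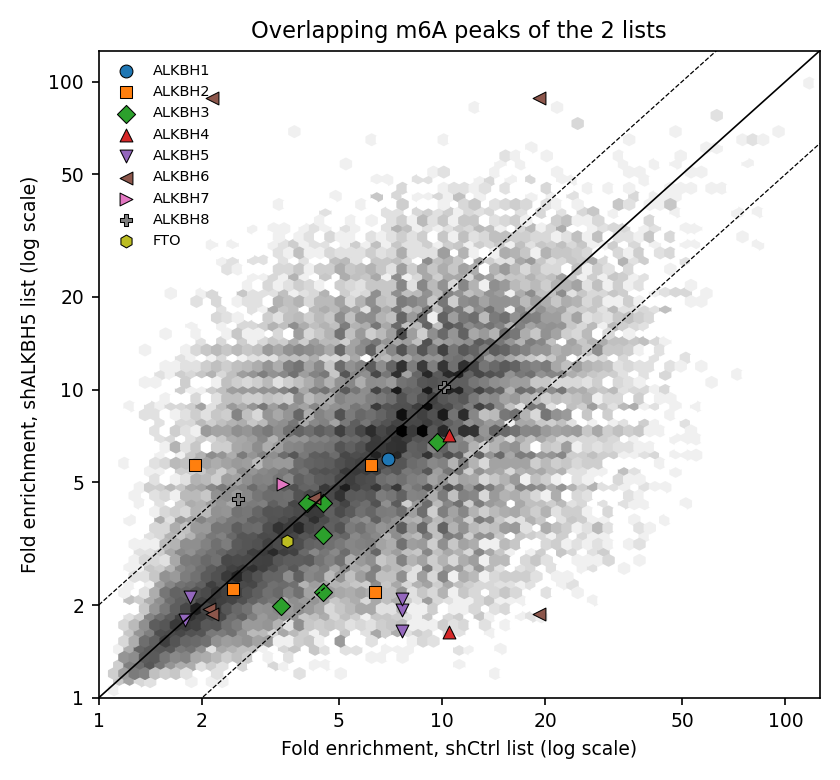
Fold enrichment of IP over input in the shCtrl list (horizontal) and the shALKBH5 list (vertical) for overlapping peaks, on log axes from 1 to above 100, with all genes as grey density and family members as coloured symbols. Below the lower dashed line (2-fold from the solid line of equal values) stand 3 ALKBH5 symbols at 7.66 in shCtrl, 2 ALKBH6 symbols share the value 88.2 in shALKBH5, and pairs past the ends of the axes are not drawn.

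At the start of ALKBH5, the shCtrl list held a 5'UTR peak of 1575 bases (18183078 to 18184652) with a fold enrichment of 7.66 and a log10 p of -81.6. In its place the shALKBH5 list held 3 short peaks of 90, 61 and 328 bases, with fold enrichments of 1.93, 2.09 and 1.65 and log10 p values of -3.17, -2.61 and -2.52. These 3 pairs were at the 3.40th, 4.05th and 2.34th percentile of all pairs by their log2 ratio. At the other end of the gene both 3'UTR peaks were in both lists, with fold enrichments of 1.79 and 1.85 in shCtrl and of 1.79 and 2.12 in shALKBH5. The input level of ALKBH5 in shALKBH5 was 19.1% of that in shCtrl, and its part in the difference between the lists was not tested. The summed span of ALKBH5 peaks was 2024 bases in shCtrl and 808 bases in shALKBH5.

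The 50 bases after the RefSeq start (GRCh38.p14) were searched for GGAC, a core form of the motif that m6A methyltransferase prefers, on the transcribed strand only. All 9 members were matched in RefSeq, with 10 start windows. GGAC was found in 4 of these 10 windows, each of another member, and in 18.9% of the 35116 start windows of all genes. The stretches are shown because they place the letters of the motif against the peaks that reach the gene start. Capitals mark each GGAC, of which the ALKBH6 stretch holds 2 (at bases 25 and 35 from the start), and each stretch reads 5' to 3' on the transcribed strand.
ALKBH4, chr7:102464833-102464856, minus strand: ctggccacgcGGACggcgcgatgg
ALKBH5, chr17:18183846-18183869, plus strand: cggcgctggcGGACgtcgggctgg
ALKBH6, chr19:36014176-36014199, minus strand: aaattggaggGGACgctggtGGAC
ALKBH7, chr19:6372818-6372841, plus strand: attatggccgGGACtgggctgctg
The stretches of ALKBH4 and ALKBH5 lay inside a shCtrl peak and inside no shALKBH5 peak, that of ALKBH6 lay inside peaks of both lists, and that of ALKBH7 lay in no peak. The shCtrl peak of ALKBH4 runs over the whole gene (8626 bases) and is annotated to the 3'UTR. The nearest shALKBH5 peak ended at 102464773 in ALKBH4 and began at 18183938 in ALKBH5, close to the stretches. A match is a description of letters, not of a methylated base.

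ALKBH4 was covered from end to end by a single shCtrl peak of 8626 bases with a fold enrichment of 10.5, annotated to the 3'UTR. The shALKBH5 list held 2 peaks over nearly the same span, 7.15 over the 3' part (3326 bases) and 1.64 over the rest (5151 bases). Spans include introns, and the wide shCtrl peak has only 1 value for its whole length. For the paired 3'UTR peaks of ALKBH1, ALKBH2, ALKBH6 and ALKBH8 the ratio of shALKBH5 to shCtrl was 0.858 to 1.05. The 3'UTR peak of ALKBH1 (541 bases in both) had fold enrichments of 6.95 in shCtrl and 5.96 in shALKBH5, that of ALKBH2 2.46 and 2.26, that of ALKBH6 4.23 and 4.46, and that of ALKBH8 10.1 and 10.2. ALKBH7 had its only peak, of 414 bases at the 3' end, in both lists with the same borders and fold enrichments of 3.45 and 4.96, a ratio of 1.44. ALKBH1 had 2 more 3'UTR peaks in the shALKBH5 list only, with fold enrichments of 4.90 and 1.34 and an FDR above 0.05.

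**Figure D5:**
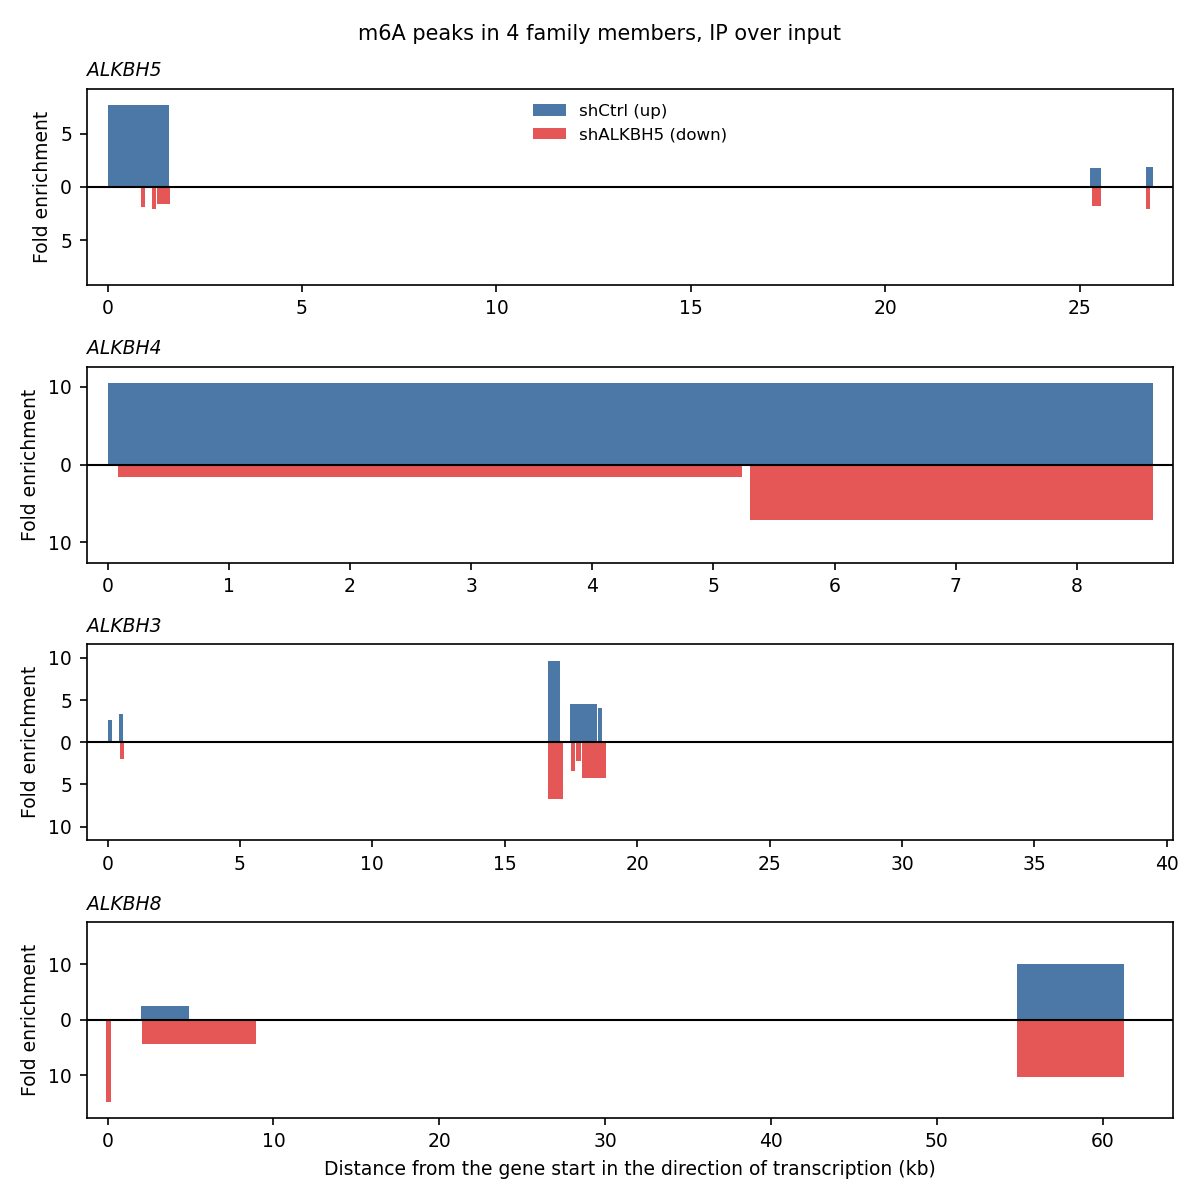
Peaks of ALKBH5, ALKBH4, ALKBH3 and ALKBH8 by distance from the gene start in kb, with the fold enrichment of IP over input as height, shCtrl upwards in blue and shALKBH5 downwards in red, and very short peaks widened to be visible. The start of ALKBH5 shows the wide blue block at 7.66 over 3 narrow red ones of 1.65 to 2.09, and the end of ALKBH8 shows matching blocks at 10.1 and 10.2.

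ALKBH8 also had peaks near its start, 1 in shCtrl with a fold enrichment of 2.55 and 2 in shALKBH5 with 4.41 and, over the first 120 bases of the gene, 14.7. The latter had no partner in the shCtrl list, and its log10 p was -3.29, against -167 for the 3'UTR peak of ALKBH8 in shALKBH5. The input mean of ALKBH8 was 3.19 FPKM in shALKBH5 and 1.64 FPKM in shCtrl, and its part in these differences was not tested. ALKBH2 held a 5'UTR peak at 109092472 to 109093096 with a fold enrichment of 6.20 in shCtrl, which in shALKBH5 was part of a peak of 2999 bases with 5.70. The outermost ALKBH2 peak was at 6.38 in shCtrl and at 2.21 in shALKBH5. ALKBH6 had the highest value of the family, 88.2 over 567 bases at the start of the gene in shALKBH5. The shCtrl list gave that place 2 peaks that overlap each other, with 19.2 and 2.14. The peak with 2.14 ends at 36014235, the first base of AC002116, which is on the same minus strand.

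For FTO an exonic peak from 53825867 ended at 53844189 in shCtrl and at 53844159 in shALKBH5, with fold enrichments of 3.54 and 3.24, and it was the only FTO pair. A peak over the 5'UTR (9723 bases, fold enrichment 3.67, log10 FDR -4.09) was in the shALKBH5 list only. In the 3'UTR each list held 1 FTO peak, 10.2 in shCtrl and 8.57 in shALKBH5, at places that do not overlap, and both had an FDR above 0.05. For ALKBH3 all peaks annotated as intronic, 3 in shCtrl and 4 in shALKBH5, lay wholly within SEC14L1P1, a pseudogene on the same strand (43897456 to 43899636). The first of them began at its first base in both lists, with fold enrichments of 9.67 and 6.74. Outside the pseudogene ALKBH3 held 5'UTR peaks only, 2 in shCtrl with 2.66 and 3.40 and 1 in shALKBH5 with 1.99.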

How the data were processed

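Input RNA and m6A immunoprecipitates (IP) of A375 cells were analysed in 2 groups, shALKBH5 and shCtrl, with 3 input and 3 IP libraries each, grouped by their titles. The authors deposited expression as FPKM per input library. Their fold changes and p-values between groups, deposited beside it and in a table of differential peaks, were not used, and of that table only positions were. Peaks were deposited as 1 list for each group. In it the authors give a fold enrichment ratio of IP over input, and a log10 p and log10 FDR treated here as a score. Peak starts count from 0 in the lists and were written counting from 1. The aligner, the counter and the peak caller are not given in the sources used here. The submitters' processing notes name the build mm10, a mouse build. All 15690 protein-coding genes matched by symbol nevertheless overlapped their RefSeq position in GRCh38.p14, and 76.9% shared a start or an end with it within 1 base.

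Read counts were not used, and low FPKM values showed no steps (no ratio between replicates 1 and 2 was shared by more than 0.216% of them in shALKBH5 or 0.167% in shCtrl), so the depth is unknown. On log2(FPKM + 0.1), genes averaging 0.5 FPKM or more were tested two-sided with limma 3.58.1 under R 4.3.3 (lmFit, then eBayes with a trend), with Benjamini-Hochberg adjustment over all of them and a threshold of 0.05. The fit was tested on simulated data. Sums and shares were compared by exact permutation tests. Peaks were paired between lists within a gene and strand by an overlap of at least 1 bp. Tables and figures were made with pandas 2.3.3, numpy 2.4.6, matplotlib 3.10.9 and scipy 1.17.1 in Python 3.11.15.

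The members, the lists and the tests were chosen with earlier results of these data known. The rule for named genes took the 9 members, the cell type markers, from each other list the 3 genes with the largest and the 3 with the smallest log2 fold change among those called whose groups did not overlap, and the 3 genes most correlated with ALKBH5. SEC14L1P1, AC002116, ORAI2, PSPN, RPGRIP1L, TRMT6, TRMT112, ASCC1, ASCC2, ASCC3, XRCC1, PARP1, LIG3, CBLL1 and METTL3 were named with their values known. Alternatives tried were other pseudocounts and filters, median-ratio rescaling, a replicate block, no trend, each library left out, stricter peaks, a reciprocal overlap of 50% and centred ratios.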

Additional observations from a re-analysis of the deposited data

How the results depend on the processing

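Of the members, ALKBH1, ALKBH2, ALKBH5, ALKBH6, ALKBH8 and FTO kept direction and call in all 13 alternatives, ALKBH3 stayed without a call in all 13, and ALKBH4 lost its call in 7. ALKBH7, which was not called, had a log2 fold change of -0.0098 after rescaling by the median ratio, and its range was -0.039 to 0.12 when libraries were left out in turn, -0.039 without shCtrl replicate 2 and -0.032 without shALKBH5 replicate 2. The number of members called was 6 to 7 with each library left out. The difference of the 8 other members in summed FPKM was 9.42 and became 6.53 after rescaling, with an exact permutation p = 0.1 in both. Pairs of member peaks more than 2-fold apart numbered 10, against 4 with peaks kept at 2-fold enrichment or more and an FDR up to 0.01 (21.7% of all pairs then were) and 5 with a reciprocal overlap of 50% (14.3% of all pairs). Fewer pairs entered both counts (17 each). The other alternatives kept the number of genes called, over all genes and in each list of members and related genes, within 1.5 times. Split by direction, the 2 partner genes called higher became 1 with no filter, after rescaling and with the replicate block. With the replicate number as a block 6 members and 7271 genes were called, against 7 and 7917, and ALKBH4 was lost (adjusted p = 0.0804). Deviations of same-numbered libraries correlated at -0.0462 to 0.0591, and those of other numbers at -0.0619 to 0.0439. No deviation shared by number was thus seen. These values cannot tell whether same-numbered libraries shared a culture or a batch. The depth of the input libraries is unknown, and 3 libraries a group limit exact tests to p = 0.1.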
